A study of Mus musculus with 8 samples.

Results

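The *Hox* gene clusters are tandem arrays of homeobox transcription factor genes. The 38 *Hox* genes examined here lie in 4 clusters of the mouse genome (build mm9), and every listed CpG in their promoters (−1 kb to +0.5 kb around a transcription start), in their gene bodies and between the genes of a cluster was taken. HoxA (10 genes, chr6:52112350-52211874), HoxB (10 genes, chr11:96054630-96229570), HoxC (9 genes, chr15:102750534-102867274) and HoxD (9 genes, chr2:74505367-74603200) together held 2170 of the 757812 listed CpGs. Of these, 1936 were read at least 10 times in each of the 4 oxBS libraries and were tested. The listed CpGs made up between 15.3% (HoxB) and 23.1% (HoxD) of the CpGs in each interval, since the assay reads only MspI fragments (cut at CCGG), so most of each cluster was not seen.

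*Hox* proteins give cells their position along the head-to-tail axis. Genes at the 3′ end of a cluster (paralog groups 1 to 4) act in the hindbrain and neck, those in the middle in the trunk, and those at the 5′ end (groups 9 to 13) in the lumbar, tail and limb regions. Retinoic acid activates the clusters from the 3′ end during neural differentiation, whereas Polycomb complexes, which bind unmethylated CpG-rich DNA, keep inactive *Hox* genes silent. RNA was not measured in these libraries, so the values below are DNA methylation alone, and the level of *Tet3* itself is not shown by them.

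The cells were neural precursor cells (NPCs) made with retinoic acid from A2lox.cre mouse embryonic stem (ES) cell clones, a line derived from male E14 cells. Both groups carried an inducible short hairpin RNA and received doxycycline at 2 µg/ml for 5 days. The control hairpin was Scrambled (shScr), and the other targeted *Tet3* (shTet3), which encodes a dioxygenase that oxidises 5-methylcytosine (5mC) to 5-hydroxymethylcytosine (5hmC). Each group had 2 replicates, and 100 ng of DNA from each gave a bisulphite library (BS, 5mC plus 5hmC) and an oxidative bisulphite library (oxBS, 5mC alone), 8 libraries in all. Nothing in the labels says that replicates were separate clones or differentiations, so the p-values of the permutation, F and limma tests measure only the spread between these samples, which may be technical.

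Total calls per library ranged from 42516767 to 61865967, and the median coverage of *Hox* CpGs ranged from 37 to 66. A hypo-DMP (hypomethylated differentially methylated position) is a CpG with a *q* value below 0.01 and a level more than 10 percentage points lower in shTet3, and a hyper-DMP is the reverse. The *q* values come from a test that pools the reads of the replicates, so their error does not include the spread between replicates. Over all 662455 CpGs tested in oxBS, 13.9% were hypo-DMPs and 0.0814% were hyper-DMPs. With an overdispersion-corrected F test, which does include that spread, 0 CpGs were called in either direction, and 12919 were lower by more than 10 points at an unadjusted p under 0.05. With 2 libraries per group, this F test can hardly reach a *q* value below 0.01 over so many CpGs. Its 0 calls therefore do not show whether the levels changed. The cell type could be checked only by promoter 5mC, and the markers were mixed. Among NPC markers, the *Sox2*, *Nes* and *Pax6* promoters had 0.327%, 5.67% and 32.8% 5mC in shScr, and among pluripotency markers *Esrrb*, *Pou5f1*, *Zfp42* and *Tcl1* had 9.22%, 43.4%, 43.6% and 62.8%.

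Stretches that hold several hypo-DMPs are shown first, as examples of where neighbouring CpGs were called together. They are forward-strand mm9 sequences, with the CpGs called as hypo-DMPs in capitals and all other bases in lower case. The first lies in an intron of *Hoxd3* upstream of internal start sites (chr2:74574285-74574551), the second in a coding exon of *Hoxd12* (chr2:74513153-74513378), and the third in an intron shared by *Hoxa3* and the non-coding gene 2700086A05Rik (chr6:52135440-52135508).
Hoxd3 intron: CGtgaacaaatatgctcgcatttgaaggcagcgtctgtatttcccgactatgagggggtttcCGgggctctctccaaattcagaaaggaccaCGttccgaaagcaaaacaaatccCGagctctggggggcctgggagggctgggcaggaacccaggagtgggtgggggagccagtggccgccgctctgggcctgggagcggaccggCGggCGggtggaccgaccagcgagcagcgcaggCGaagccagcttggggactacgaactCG
Hoxd12 exon: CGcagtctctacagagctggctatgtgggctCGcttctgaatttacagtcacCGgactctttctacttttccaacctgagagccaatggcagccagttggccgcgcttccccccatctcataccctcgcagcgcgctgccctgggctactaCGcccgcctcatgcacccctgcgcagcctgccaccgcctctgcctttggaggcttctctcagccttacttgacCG
Hoxa3 intron: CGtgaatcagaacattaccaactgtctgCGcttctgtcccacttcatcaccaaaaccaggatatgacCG

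The *Hoxd3* stretch had 8 hypo-DMPs among 17 tested CpGs, and its mean 5mC stood at 45.2% and 38.9% in the shScr replicates against 22.6% and 22.5% in the shTet3 replicates. The *Hoxd12* stretch had 5 hypo-DMPs among 8 tested CpGs, with means of 59.2% and 65.0% in shScr against 43.0% and 39.6% in shTet3. All 3 CpGs of the *Hoxa3* stretch were hypo-DMPs, at 69.6% and 67.8% in shScr against 41.8% and 45.7% in shTet3. The stretches were chosen for their hypo-DMPs, so that the lower shTet3 means follow from the choice and are a description.

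The shScr replicates differed from each other inside the *Hox* clusters in the opposite order to the mean over all CpGs. At the 1796 *Hox* CpGs covered in all 8 libraries, shScr replicate 1 was higher than replicate 2, with 22.2% against 19.2% in oxBS and 23.0% against 19.7% in BS. At all 612975 such CpGs, replicate 1 was lower, with 26.3% against 31.2% in oxBS and 26.7% against 31.5% in BS. Of the 905 *Hox* CpGs with a mean of at least 10% over the 4 shScr libraries, replicate 1 was higher at 64.6% in oxBS and 65.0% in BS, while over all 273669 such CpGs the shares were 24.8% and 24.2%. The order was the same in each cluster, where the share with replicate 1 higher in oxBS was 73.6% in HoxA, 60.9% in HoxB, 66.1% in HoxC and 57.6% in HoxD. This order was not particular to the *Hox* clusters. Some other promoters had it in oxBS, such as *Pax6* (41.1% against 24.5%) and *Evx1* (39.6% against 35.0%). Others had the reverse, such as *Cdx1* (26.7% against 42.1%) and *Zfp42* (29.7% against 57.5%). The BS and oxBS libraries of a replicate come from the same DNA, so they are not separate cultures. The shTet3 replicates were close to each other, at 16.1% and 15.7% in oxBS over the *Hox* CpGs. The effect of this gap between the shScr replicates is given below for the mean *Hox* difference, the totals of hypo- and hyper-DMPs and the limma promoters. It is not given for the counts by level, by annotation or of single genes, which may depend on it as well.

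**Figure D1:**
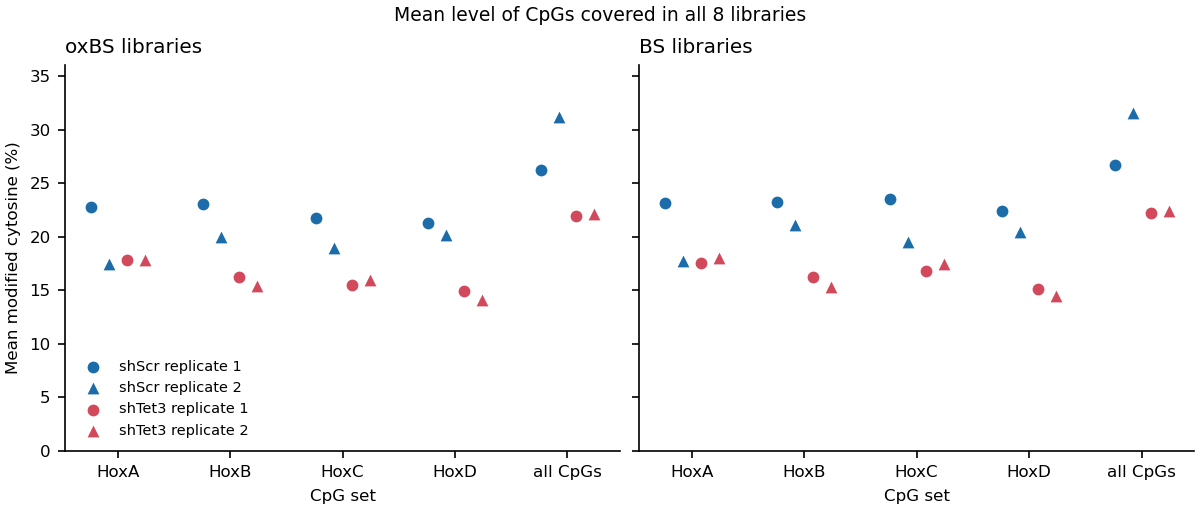
Mean modified cytosine (%) of CpGs read at least 10 times in each of the 8 libraries, for each *Hox* cluster and for all CpGs, in oxBS (left) and BS (right) libraries. Each point is 1 library, colour gives the shRNA and shape the replicate: shScr replicate 1 lies above replicate 2 in every cluster and below it over all CpGs.

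Over the 1936 tested *Hox* CpGs, mean 5mC stood at 22.7% and 19.4% in the shScr replicates against 16.6% and 16.0% in the shTet3 replicates. The difference was −4.79 percentage points between groups of 21.1% ± 2.31 and 16.3% ± 0.38 (SD, n = 2). Both shTet3 libraries lay below both shScr libraries. The exact permutation p, two-sided, was 0.33, the smallest value that 2 libraries against 2 allow. Over all CpGs tested, the difference was −6.94 percentage points. The *Hox* difference was −6.42 points against shScr replicate 1 alone and −3.16 against replicate 2 alone, whereas over all CpGs it was −4.39 and −9.48. Thus, the *Hox* difference was larger than the general one against replicate 1 and smaller against replicate 2.

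The gap between groups was then read for each cluster. HoxD had 21.9% and 20.4% in shScr against 15.4% and 14.3% in shTet3, a difference of −6.31 points. HoxB had 22.9% and 19.9% in shScr against 16.4% and 15.5% in shTet3, a difference of −5.46 points. HoxC had 21.8% and 19.2% in shScr against 15.7% and 15.8% in shTet3, a difference of −4.75 points. In these 3 clusters the groups did not overlap. HoxA had 24.1% and 18.1% in shScr against 18.6% and 18.7% in shTet3, so that its shTet3 libraries lay between the shScr libraries. Its difference was −2.43 points (exact permutation p = 1, two-sided), and it became 0.51 without shScr replicate 1. The differences between clusters were not tested.

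In all, 144 *Hox* CpGs (7.44%) were hypo-DMPs and 4 (0.207%) were hyper-DMPs, beside 13.9% and 0.0814% of all CpGs. By cluster, 18 of 507 tested CpGs were hypo-DMPs in HoxA (3.55%), 41 of 487 in HoxB (8.42%), 29 of 362 in HoxC (8.01%) and 56 of 580 in HoxD (9.66%). At 122 of the 144 (84.7%), both shTet3 libraries were below both shScr libraries, beside 91.9% of all hypo-DMPs. The median pooled difference at *Hox* hypo-DMPs was −24.6 percentage points, beside −25 at all hypo-DMPs. The share in each cluster is below that of all CpGs, but this order depends on the control. Without shScr replicate 1, 100 *Hox* CpGs (4.94%) were hypo-DMPs beside 16.7% of all CpGs. Without shScr replicate 2, 169 *Hox* CpGs (8.57%) were hypo-DMPs beside 5.79% of all CpGs. HoxA moved most, from 10 hypo-DMPs without replicate 1 to 44 without replicate 2, and HoxB moved little, from 34 to 41. The F test, which could hardly call any CpG, called 0 *Hox* CpGs. In it, 23 (1.19%) were lower by more than 10 points at an unadjusted p under 0.05, beside 1.95% of all CpGs.

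**Figure D2:**
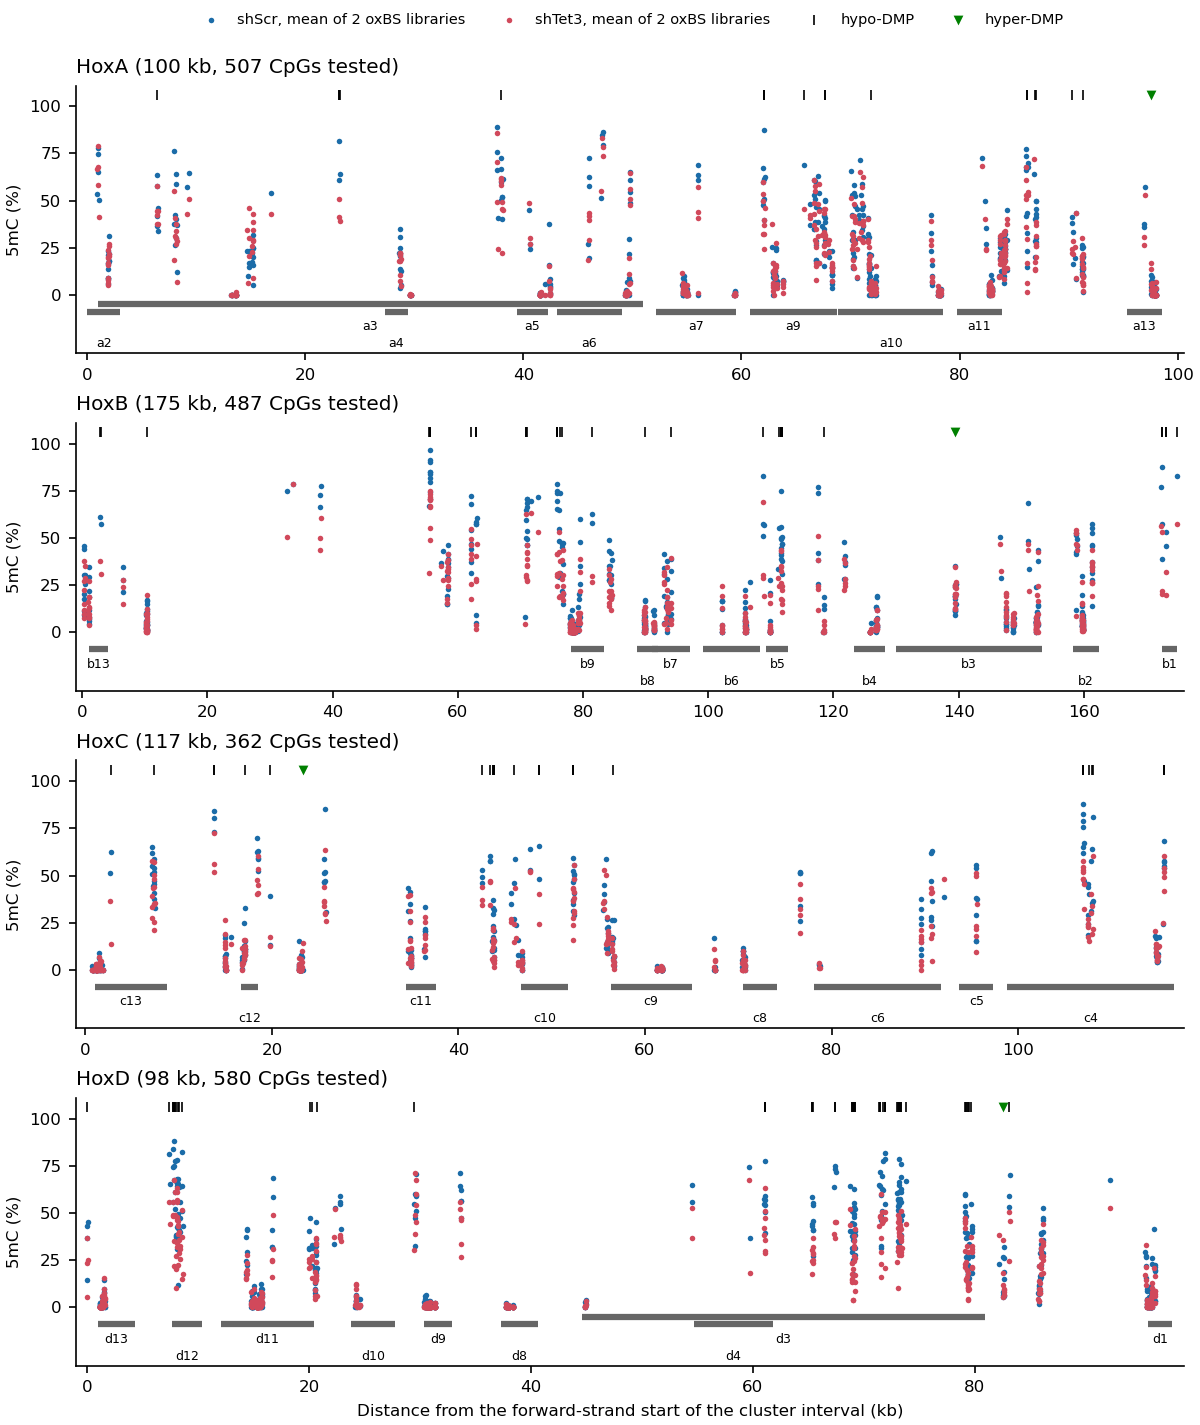
5mC (%) of each tested CpG along the 4 clusters, as the mean of the 2 shScr oxBS libraries and of the 2 shTet3 oxBS libraries, against distance (kb) from the start of the interval. Grey bars are the annotated genes, labelled without the prefix *Hox* (the longer bars of *Hoxa3* and *Hoxd3* are raised); ticks at the top mark the 144 hypo-DMPs and triangles the 4 hyper-DMPs, and the ticks crowd over *Hoxd12* and *Hoxd3*.

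*Hox* CpGs were marked by intermediate levels. In shScr, 41.7% of *Hox* CpGs had between 10 and 60% 5mC, beside 16.8% of all CpGs tested, and only 8.83% had 60% or more, beside 29.1%. The share between 10 and 60% ranged from 35.7% in HoxD to 46.0% in HoxA, so each cluster lay above the share of all CpGs. CpG density around each CpG was read beside its level. Within 100 bases on either side, *Hox* CpGs under 10% had a median of 20 CpGs, those between 10 and 60% had 12, and those of 60% or more had 8. Hypo-DMPs had a median of 10, and the other CpGs of at least 10% in shScr had 12. Neighbouring CpGs share these windows and reads, so they are not independent, and no test was made.

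Since few *Hox* CpGs were highly methylated, the share of hypo-DMPs was also read within levels, by the mean of the 4 oxBS libraries. Between 20 and 40%, 12.6% of 365 *Hox* CpGs were hypo-DMPs, beside 17.8% of all CpGs at that level. Between 40 and 60%, it was 19.4% of 289 beside 35.1%. Between 60 and 80%, it was 33.3% of 69 beside 39.4%. Of the 7 *Hox* CpGs at 80% or more, 42.9% were hypo-DMPs, beside 27.3%. These bins use the shTet3 libraries too. Binned by the shScr mean alone, the shares were closer, with 4.13% of 218 *Hox* CpGs beside 4.46% between 10 and 20%, 8.09% of 309 beside 10.4% between 20 and 40%, 17.9% of 280 beside 21.2% between 40 and 60%, and 31.0% of 145 beside 35.8% between 60 and 80%. Of the 26 *Hox* CpGs at 80% or more in shScr, 57.7% were hypo-DMPs, beside 43.6%. In the bin from 40 to 60% by the mean of the 4 libraries, *Hox* CpGs had 60.9% and 51.3% in the shScr replicates against 42.7% and 42.0% in the shTet3 replicates, whereas all CpGs of the bin had 52.4% and 68.0% in shScr against 43.0% and 40.3% in shTet3.

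**Figure D3:**
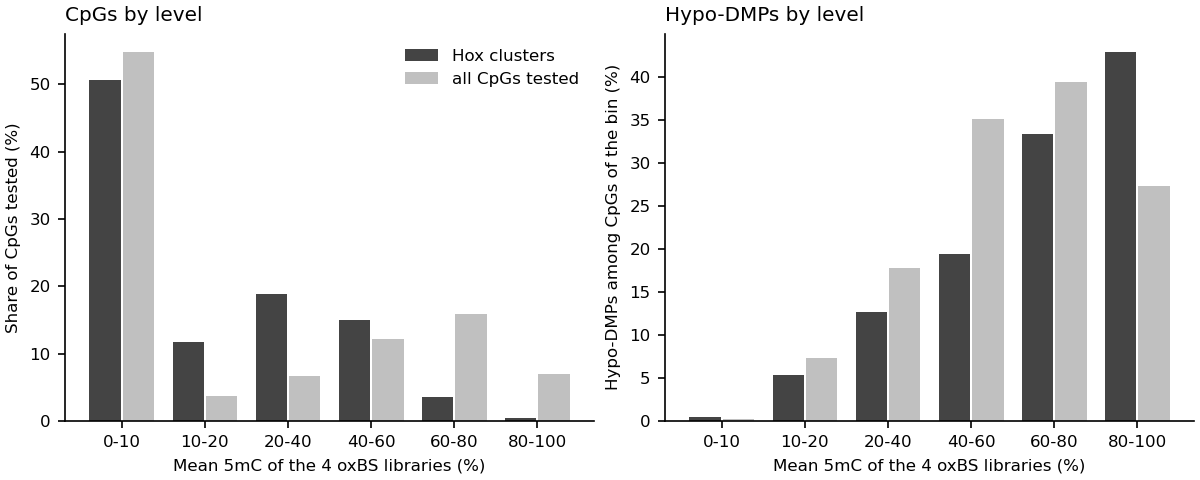
Left, share (%) of tested CpGs by mean 5mC of the 4 oxBS libraries, for the *Hox* clusters and for all CpGs; right, share (%) of hypo-DMPs among the CpGs of each bin. Bars start at 0 and the bins are those written on the axis; *Hox* CpGs lie more often between 10 and 60%, and their hypo-DMP share is lower in the bins from 10 to 80% and higher in the outer bins, the last of which holds 7 *Hox* CpGs.

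By annotation, the 794 tested cluster CpGs in promoters had a mean of 14.1% 5mC in shScr, beside 5.12% for all promoter CpGs. Promoters of any protein-coding gene count here, so some of these CpGs lie at genes in the clusters that are not *Hox* genes. Those in coding exons (455) had 19.6%, beside 51.4%, those in introns (286) had 29.6%, beside 52.4%, and those between genes (311) had 29.9%, beside 52.8%. Promoter CpGs of the clusters were therefore above the general promoter level, while the rest of the clusters was below the level of its class. Of the promoter CpGs, 38 were hypo-DMPs (4.79%), beside 2% of all promoter CpGs. HoxD held 29 of the 38 (8.43% of its promoter CpGs), mostly at *Hoxd3* and *Hoxd12*, while the shares in HoxA (1.80%), HoxB (2.03%) and HoxC (2.22%) were near that of all promoter CpGs. The shares were 7.69% in coding exons beside 21.1%, 10.8% in introns beside 24.6% and 11.3% between genes beside 27.6%.

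Promoter values were taken for the 32 *Hox* genes with at least 3 tested promoter CpGs. *Hoxa2*, *Hoxa3*, *Hoxb3*, *Hoxb4* and *Hoxc5* had no listed promoter CpG, and *Hoxb2*, a hindbrain gene, had only 2 tested CpGs, at 26.2% and 27.0% in shScr against 27.8% and 33.3% in shTet3. In shScr, 16 of the 32 promoters were under 10%, 10 were between 10 and 40%, and 6 were at 40% or more. Among all 12627 genes with such a promoter, 79.2% were under 10%. The median *Hox* promoter had 10.4% 5mC in shScr, beside 0.462% for all genes. In 13 of the 32 promoters both shTet3 libraries lay below both shScr libraries, beside 27.5% of all promoters, and in 0 were both above. The median difference was −1.85 percentage points, beside −0.118 for all genes. With limma, 0 of the 32 promoters were lower at an adjusted p below 0.05, as were 0 of all 12627 genes (0%). At an unadjusted p under 0.05, 5 of the 32 (15.6%) were lower, beside 4.88% of all genes. This excess over all genes depended on the libraries used. It nearly vanished without shScr replicate 1, where the share of all genes rose and the *Hox* share did not. It grew without shScr replicate 2. It was gone without either shTet3 replicate, where the share of all genes fell too. Fits that leave 1 library in a group estimate the spread poorly, so they do not show on which library the excess rests.

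**Figure D4:**
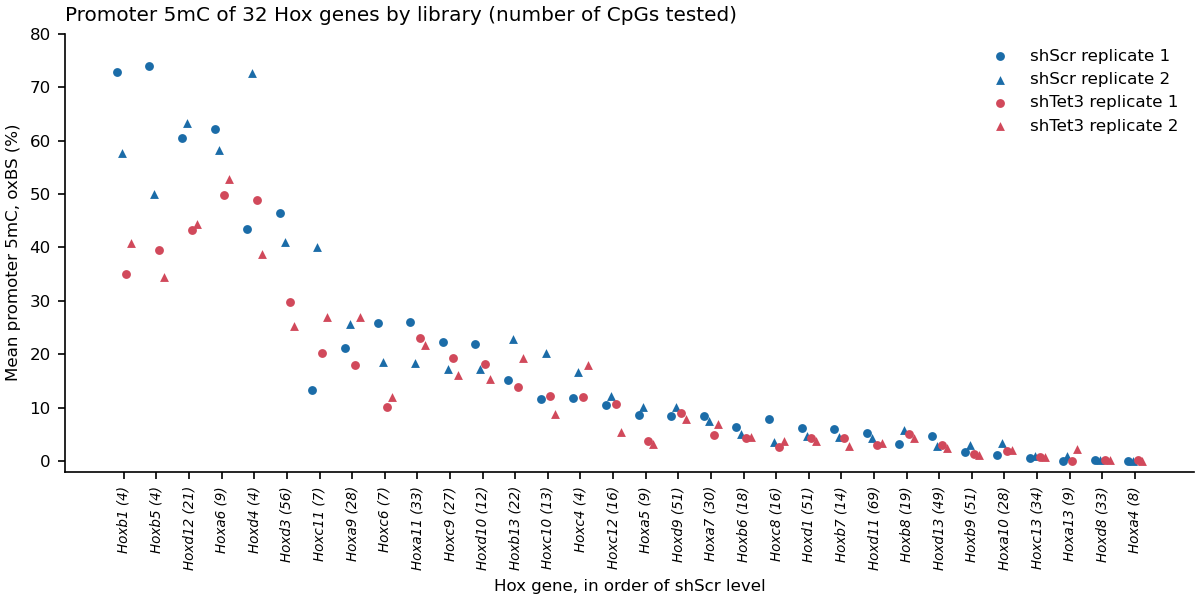
Mean promoter 5mC (%) in each oxBS library for the 32 *Hox* genes with at least 3 tested promoter CpGs, in order of the shScr mean, with the number of CpGs in brackets. Colour gives the shRNA and shape the replicate; the groups are apart in *Hoxb1*, *Hoxb5*, *Hoxd12*, *Hoxa6* and *Hoxd3* among the 6 highest promoters and overlap in *Hoxd4*.

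Among genes of the 3′ end, *Hoxb1*, which specifies a segment of the hindbrain, had the most methylated promoter of the 32. Its 4 tested CpGs had 72.9% and 57.7% in the shScr replicates against 35.1% and 40.8% in the shTet3 replicates. The groups did not overlap, 2 of the 4 CpGs were hypo-DMPs, and the difference of −27.3 points gave an adjusted p of 0.77 with limma. In BS, the same promoter had 66.2% and 49.5% in shScr against 36.8% and 45.0% in shTet3. The body of *Hoxb1* had 3 tested CpGs, all hypo-DMPs, at 59.7% and 61.8% in shScr against 35.5% and 37.2% in shTet3. *Hoxd1* differed from *Hoxb1* in level, with 51 promoter CpGs at 6.20% and 4.73% in shScr against 4.30% and 3.82% in shTet3, and 0 of them were hypo-DMPs.

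*Hoxd3*, a patterning gene of the neck vertebrae (chr2:74549986-74586331), held more hypo-DMPs than any other *Hox* gene. Its 56 tested promoter CpGs had 46.4% and 40.9% 5mC in the shScr replicates against 29.8% and 25.2% in the shTet3 replicates. The groups did not overlap, and 19 of the 56 CpGs were hypo-DMPs (limma, difference −16.2 points, adjusted p = 0.77). The 74 tested CpGs of its body had 45.4% and 48.8% in shScr against 31.7% and 32% in shTet3, with 20 hypo-DMPs. The annotation gives *Hoxd3* 6 start sites, and their promoters were unlike each other. The outermost start had 6 CpGs at 1.95% and 0.805% in shScr against 1.34% and 0.545% in shTet3, with 0 hypo-DMPs. The third had 9 CpGs at 52.9% and 38.3% in shScr against 28.9% and 26.0% in shTet3, with 3 hypo-DMPs. The fourth, just downstream of the sequence above, had 23 CpGs at 44.5% and 38.8% in shScr against 24.4% and 22.9% in shTet3, with 9 hypo-DMPs. The fifth had 16 CpGs at 62.4% and 57.2% in shScr against 46.5% and 35.5% in shTet3, with 7 hypo-DMPs. Losses were thus called at internal starts, while the CpGs of the outermost start were close to 0 in all 4 libraries.

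*Hoxd4*, a retinoic acid responsive hindbrain gene, lies inside the span of *Hoxd3* and shares CpGs with it. Its 4 promoter CpGs had 43.4% and 72.7% in shScr against 48.8% and 38.8% in shTet3, so the shScr replicates were far apart and the groups overlapped. Its body had 8 tested CpGs at 60.5% and 51.9% in shScr against 45.5% and 38.7% in shTet3, with 3 hypo-DMPs.

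*Hoxd12*, a limb and digit gene at the other end of the cluster (chr2:74512986-74515763), was the other gene of HoxD with 3 or more hypo-DMPs in its promoter. Its 21 tested promoter CpGs had 60.5% and 63.2% in the shScr replicates against 43.2% and 44.3% in the shTet3 replicates. The 2 groups were far apart compared with the spread within each, and 8 CpGs were hypo-DMPs (limma, difference −18.1 points, adjusted p = 0.74). Its body had 19 tested CpGs at 51.0% and 50.4% in shScr against 35.2% and 36.5% in shTet3, with 3 hypo-DMPs. Within the promoter, 6 neighbouring listed CpGs (chr2:74513116-74513305) were all hypo-DMPs, at 78.6% and 76.8% in shScr against 47.3% and 49.1% in shTet3. In BS they had 69.7% and 70.4% in shScr against 63.0% and 55.9% in shTet3, so the gap there was smaller.

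*Hoxd3* and *Hoxd12* together held 50 of the 56 hypo-DMPs of HoxD in 170 of its 580 tested CpGs, and 66 of its 80 hypo-DMPs in BS. Their CpGs had 48.2% and 48.2% in shScr against 32.9% and 31.8% in shTet3. The other 410 CpGs of the cluster had 11% and 8.88% in shScr against 8.14% and 7% in shTet3, with 6 hypo-DMPs. The equal shScr means hide differences of opposite sign, since replicate 1 was higher in the *Hoxd3* promoter and lower in its body. Both genes were chosen by a rule that counts hypo-DMPs, so this split is a description.

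Other parts of HoxD had low 5mC. *Hoxd8* had 33 promoter CpGs at 0.144% and 0.0920% in shScr against 0.0804% and 0.212% in shTet3. *Hoxd9* held the longest run of low CpGs in the 4 clusters, 58 neighbours (chr2:74535898-74536752) each under 10% in both shScr libraries, with means of 0.0764% and 0.899% in shScr against 0.221% and 0.444% in shTet3. The promoters of *Hoxd11* (69 CpGs) and *Hoxd13* (49 CpGs), genes of limb patterning, had between 2.32% and 5.26% in all 4 libraries, with 0 and 1 hypo-DMPs.

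In HoxB, *Hoxb5*, which acts in the lower hindbrain and neural crest, held the most hypo-DMPs. Its 4 promoter CpGs had 74.0% and 50% in shScr against 39.4% and 34.5% in shTet3, with 1 hypo-DMP (limma, difference −25 points, adjusted p = 0.77). In BS, the shScr replicates were closer, at 75.5% and 74.3%, with 37.3% and 34.8% in shTet3, and all 4 CpGs were hypo-DMPs. The body of *Hoxb5* had 26 tested CpGs at 31.3% and 26.9% in shScr against 15.6% and 18.7% in shTet3, and 10 of them were hypo-DMPs. The 30 body CpGs tested in BS had 32.02% and 18.90% in shScr against 20.58% and 14.06% in shTet3, with 4 hypo-DMPs. The groups of the body thus overlapped in BS and not in oxBS, over CpG sets that differ. The promoters of *Hoxb6*, *Hoxb7*, *Hoxb8* and *Hoxb9*, genes of the trunk, had between 1.04% and 6.31% in the 4 oxBS libraries and 0 hypo-DMPs there. The longest low run of HoxB, 19 CpGs, lay at *Hoxb9* (chr11:96132809-96132972). *Hoxb13*, the last gene of the cluster, had 22 promoter CpGs at 15.2% and 22.8% in shScr against 13.9% and 19.3% in shTet3. Its groups overlapped.

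In HoxC, the body of *Hoxc4* held 9 of the 29 hypo-DMPs. Its 35 tested CpGs had 46.1% and 37.3% in shScr against 28.7% and 33.1% in shTet3, whereas its 4 promoter CpGs had 11.8% and 16.7% in shScr against 12.0% and 18% in shTet3 and overlapped. The body of *Hoxc10*, a lumbar motor neuron gene, had 4 CpGs at 58.3% and 57.0% in shScr against 41.9% and 42.5% in shTet3, with 2 hypo-DMPs. The longest run of hypo-DMPs in HoxC was 3 CpGs over 3654 bases (chr15:102799146-102802799), at 58.5% and 56.8% in shScr against 32.2% and 35.1% in shTet3. The promoter of *Hoxc6* had 7 CpGs at 25.9% and 18.6% in shScr against 10.1% and 12.0% in shTet3. In BS, where 10 CpGs were tested, the values were 30% and 16.8% against 25.3% and 24.7%, and the groups overlapped. The CpG sets differ, so the 2 kinds of library are not compared at the same CpGs there. *Hoxc11* had shScr replicates at 13.3% and 40.1%, on either side of both shTet3 values. *Hoxc13*, a hair follicle gene, had 34 promoter CpGs between 0.511% and 0.962% in the 4 libraries, and a run of 27 neighbouring low CpGs (chr15:102751406-102752024).

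In HoxA, *Hoxa9*, a gene of the trunk and of blood stem cells, had 3 hypo-DMPs among its 28 promoter CpGs. Even so, its promoter means were 21.1% and 25.6% in shScr against 17.9% and 26.9% in shTet3, so the groups overlapped (limma, difference −0.963 points, adjusted p = 0.99), and the difference was 1.86 points in BS. *Hoxa6* had the highest promoter of the cluster, with 9 CpGs at 62.2% and 58.3% in shScr against 49.9% and 52.8% in shTet3 and no overlap. It had 0 hypo-DMPs among these 9 CpGs in oxBS and 2 among the 14 CpGs tested in BS. The promoters of *Hoxa4* (8 CpGs) and *Hoxa13* (9 CpGs), with *Hoxd8*, were the lowest of the 32. *Hoxa4* was at 0% in both shScr libraries and at 0.0992% and 0% in shTet3. *Hoxa13* was at 0% and 0.972% in shScr against 0% and 2.28% in shTet3. The longest low run of HoxA, 18 CpGs, lay in a coding exon of *Hoxa11* (chr6:52195047-52195264). The body of *Hoxa2*, an anterior hindbrain gene, had 18 CpGs at 36.5% and 22.8% in shScr against 30.5% and 28.8% in shTet3, so the shTet3 libraries lay between the shScr libraries, as they did over HoxA as a whole. The body of *Hoxa3*, a patterning gene of the neck, had 147 CpGs at 28.1% and 21.2% in shScr against 22.4% and 21.3% in shTet3. Its groups overlapped, and 5 of its CpGs were hypo-DMPs, 3 of them in the stretch shown above. The span of *Hoxa3* holds *Hoxa4*, *Hoxa5* and *Hoxa6* and part of *Hoxa2*, so CpGs of those genes are counted in its body too.

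Among the 35 gene bodies with at least 3 tested CpGs, the groups did not overlap and shTet3 was lower in 17, beside 72.0% of all gene bodies, and was higher in 0. The median level was 19.0% in shScr, beside 64.8% for all genes, and the median difference −2.56 points, beside −12.4. In shScr, replicate 1 was higher than replicate 2 in 25 of the 35 bodies, beside 9.31% of all gene bodies. With limma, 0 of the 35 were lower at an adjusted p below 0.05, as were 0 of all 10963 genes (0%), and 6 of the 35 (17.1%) were lower at an unadjusted p under 0.05, beside 19.8% of all genes. The use of gene bodies was chosen after seeing the data.

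The CpG with the largest pooled decrease is given for each cluster, among hypo-DMPs with both shTet3 libraries below both shScr libraries. The sequence is forward-strand mm9 with the CpG in capitals.
HoxA, coding exon of Hoxa9 (chr6:52174437-52174466): tcttccgagtggagCGagcatgtagccagt
HoxB, between genes (chr11:96130495-96130556): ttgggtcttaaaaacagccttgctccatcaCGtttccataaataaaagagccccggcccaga
HoxC, intron of Hoxc13 (chr15:102753228-102753289): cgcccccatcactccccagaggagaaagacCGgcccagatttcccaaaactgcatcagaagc
HoxD, promoter and coding exon of Hoxd12 (chr2:74513154-74513215): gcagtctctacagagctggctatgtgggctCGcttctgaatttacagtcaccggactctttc

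The HoxA CpG was methylated in 100% of 26 calls (95% Wilson interval 87.1 to 100%) and 75% of 12 calls (46.8 to 91.1%) in the shScr replicates against 32.1% of 28 calls (17.9 to 50.7%) and 47.6% of 21 calls (28.3 to 67.6%) in the shTet3 replicates (*q* = 3.1e-06). The HoxB CpG was methylated in 86.8% of 38 calls and 70.8% of 48 calls in shScr against 25% of 108 calls and 24.5% of 49 calls in shTet3 (*q* = 4.9e-13). The HoxC CpG rested on 12 to 16 calls per library, with 75% and 50% in shScr against 12.5% and 15.4% in shTet3 (*q* = 0.0018). The HoxD CpG had 58.3% and 91.3% in shScr against 38% and 31.8% in shTet3 (*q* = 0.00021). These CpGs were picked as extremes, and the pooled differences in BS were smaller at both that could be tested there, at −24.6 against −53.1 points for HoxB and −12.1 against −43.9 points for HoxD. Intervals cover counting error only, since reads copied by PCR without molecular identifiers are not independent molecules.

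Each cluster had 1 hyper-DMP, and 0 of the 4 lay in a promoter.
HoxA, coding exon of Hoxa13 (chr6:52209867-52209928): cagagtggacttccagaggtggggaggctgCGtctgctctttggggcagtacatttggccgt
HoxB, intron of Hoxb3 (chr11:96194006-96194067): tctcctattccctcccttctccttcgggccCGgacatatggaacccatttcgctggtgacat
HoxC, between genes (chr15:102773784-102773845): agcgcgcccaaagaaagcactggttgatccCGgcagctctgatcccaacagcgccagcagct
HoxD, exon of the non-coding gene 6720416L17Rik (chr2:74587880-74587941): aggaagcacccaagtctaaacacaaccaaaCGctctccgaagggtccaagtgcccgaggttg

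The *Hoxb3* CpG had 12.3% and 6.45% in shScr against 20.2% and 27.5% in shTet3 (*q* = 0.008). The HoxC CpG was at 0% of 37 and 0% of 30 calls in shScr (upper limits of the 95% Wilson interval 9.41% and 11.4%) and at 22% and 6.45% in shTet3 (*q* = 0.001). The HoxD CpG had 9.26% and 7.25% in shScr against 25.4% and 11.4% in shTet3 (*q* = 0.007). At the *Hoxa13* CpG the groups overlapped, with 10.9% and 3.97% in shScr against 23.6% and 10.5% in shTet3 (*q* = 0.0019). In BS, the differences were −2.89 points at the *Hoxb3* CpG, 5.94 in HoxC, 2.72 in HoxD and −2 at the *Hoxa13* CpG, so the direction was not kept at 2 of the 4. The number of hyper-DMPs was 13 without shScr replicate 1 and 1 without shScr replicate 2.

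The BS libraries gave 183 hypo-DMPs among 1913 tested *Hox* CpGs (9.57%), beside 13.8% of all CpGs, and 3 hyper-DMPs, beside 0.0621%. Without shScr replicate 1 the share was 5.79% beside 17% of all CpGs, and without replicate 2 it was 8.55% beside 4.94%. Of the 144 hypo-DMPs in oxBS, 138 could be tested in BS, where 133 were lower in shTet3 and 55 were hypo-DMPs again (39.9%, beside 49.2% of all hypo-DMPs). The BS libraries are of the same DNA, so this repeats the measurement and not the culture.

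The difference between BS and oxBS estimates 5hmC. In shScr, mean BS was above mean oxBS by 0.915 and 0.559 points in the replicates over 1827 *Hox* CpGs, beside 0.444 and 0.301 over all CpGs. In shTet3, it was above by 0.156 and 0.455 points over *Hox* CpGs, beside 0.281 and 0.334. In shScr, 5 *Hox* CpGs (0.274%) were called with BS above oxBS, beside 0.33% of all CpGs, while 2 (0.109%) were called with BS below oxBS, beside 0.17%. The largest of the 5 lay in an intron of *Hoxb3*, with 37.5% and 20% in oxBS and 77.8% and 40% in BS, and 1 in a coding exon of *Hoxd12*, with 5.00% and 19.0% in oxBS and 45.6% and 37.1% in BS. In shTet3, 0 of 2020 *Hox* CpGs were called in either direction with the logistic test, beside 0.0239% above and 0.0141% below over all CpGs. With the F test, which could hardly call any CpG, 0 were called in either shRNA. At an unadjusted p under 0.05 in that test, 0 had BS above oxBS, beside 0.0288% of all CpGs in shScr and 0.0141% in shTet3. BS cannot lie below oxBS except by error. The 5 calls in shScr became 14 without oxBS replicate 1, 15 without oxBS replicate 2, 4 without BS replicate 1 and 45 without BS replicate 2, so their number rests on single libraries.

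Genes that act with or upon the clusters were read by their promoters. Of the 15 Polycomb genes, 14 were under 10% 5mC in shScr (the exception was *Cbx8*, at 14.5%), with *Ezh2* between 0.0504% and 0.227% in all 4 libraries, and 0 had 3 or more hypo-DMPs, beside 6.68% of all genes. Of the 4 Trithorax genes measured, all were under 10%, with 0 hypo-DMPs. Of the 7 cofactor genes measured (*Pbx*, *Meis* and *Pknox* genes, whose proteins bind DNA together with *Hox* proteins), 6 were under 10%, and *Meis2* had 16.6% and 4.06% in shScr against 9.86% and 2.99% in shTet3. Of 9 genes of the retinoic acid pathway, 8 were under 10%. *Crabp1*, which binds retinoic acid in the cytoplasm, was the exception, with 4 promoter CpGs at 54.2% and 54.9% in shScr against 28.7% and 33.8% in shTet3, and 3 hypo-DMPs. The 4 homeobox genes next to or upstream of the clusters that were measured had a median of 35.8% in shScr. *Cdx2* was low, at 2.56% and 1.13% in shScr against 2.01% and 3.60% in shTet3, with 0 hypo-DMPs. *Cdx1* had 26.7% and 42.1% in shScr against 24.9% and 21.9% in shTet3, *Cdx4* had 65.0% and 64.1% in shScr against 43.9% and 44.6% in shTet3, and *Evx1*, the neighbour of HoxA, had 39.6% and 35.0% in shScr against 21.7% and 23.6% in shTet3, each of these 3 with 2 hypo-DMPs. *Egr2*, which switches on *Hox* genes in the hindbrain, was under 10% in all 4 libraries.

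By the same count, 3 of the 32 *Hox* promoters had 3 or more hypo-DMPs (9.38%), beside 6.68% of all genes. Other developmental gene families had 0 of 6 (*Dlx* genes), 7 of 36 (forkhead genes) and 3 of 3 (clustered protocadherin genes with enough CpGs). The median promoter level in shScr was 10.4% for *Hox* genes, 7.38% for *Dlx* genes, 2.09% for forkhead genes and 25.6% for the protocadherins. No test of these differences was made.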

How the data were processed

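Modified cytosine was measured by oxRRBS (oxidative reduced representation bisulphite sequencing) in 8 libraries of NPCs. Per the labels and the study's methods, the authors trimmed reads with Trim Galore, aligned them to mm9 with Bismark and tested CpGs with methylKit (versions not given in the sources used here). For each CpG, the authors deposited the coverage and the percent methylation, with a lowest coverage of 5. Counts of methylated calls were derived from the percent and the coverage, and these counts were used for the CpG tests.

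CpGs read at least 10 times in each of the 4 libraries of a comparison were tested by logistic regression on the counts with a likelihood ratio test, as methylKit does, with Benjamini-Hochberg adjustment over all CpGs (Python 3.11.15, numpy 2.4.6, scipy 1.17.1, pandas 2.3.3; figures with matplotlib 3.10.9). Levels of regions are unweighted means over CpGs. Mean promoter levels of all genes with at least 3 tested CpGs were compared with limma 3.58.1 (R 4.3.3) on the arcsine square root scale, at an adjusted p below 0.05. Both tests were run on simulated data with known changes. The simulated counts varied between replicates by counting error alone, and the simulated gene levels had the same spread for every gene. These runs therefore check the code and not the error rate of the calls made here. Genes, starts and exons are from GENCODE vM1.

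The *Hox* genes and the lists of other genes were chosen with earlier results of these data known. The rule for named genes took those with 3 or more hypo-DMPs in their promoters, a hyper-DMP, or one of the 3 highest or lowest promoter levels, and in each cluster the largest decrease and the longest runs. Other *Hox* genes were named after their values were seen. Some items that the rule or the lists would take are not reported here. Same-numbered shScr and shTet3 libraries did not deviate together (r = 0.0052 over *Hox* CpGs), so the number was not used as a pairing. BS and oxBS libraries of the same number are of the same DNA. Alternatives changed the coverage minimum and upper limit, the test, the replicate block, the weighting, the promoter window and the libraries left out.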

Additional observations from a re-analysis of the deposited data

How the results depend on the processing

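The 144 hypo-DMPs of the *Hox* clusters in oxBS ranged from 89 to 169 when 1 library was left out, the 4 hyper-DMPs from 1 to 13, and the 183 hypo-DMPs in BS from 105 to 171. The overdispersion-corrected F test called 0 hypo-DMPs in oxBS, 0 in BS, 0 hyper-DMPs and 0 CpGs with BS above oxBS. It also called 0 over all CpGs, and with so few libraries it could hardly call any. Fisher's exact test called 131 hypo-DMPs and 2 hyper-DMPs in oxBS. The 5 CpGs with BS above oxBS in shScr ranged from 4 to 45, and the 0 in shTet3 from 0 to 2. The mean difference of −4.79 points ranged from −6.51 to −3.23. The HoxA difference turned to 0.51 without shScr replicate 1 (range −5.43 to 0.51), and that of the *Hoxa9* promoter turned to 1.86 in BS, 1.47 without shScr replicate 2 and 3.53 without shTet3 replicate 1 (range −5.46 to 3.53). With a replicate block, although the numbers are no known pairing between the shRNAs, there were 145 hypo-DMPs and 5 hyper-DMPs in oxBS and 189 hypo-DMPs in BS, the mean difference was −4.79 points, and limma called 0 promoters. With BS paired to oxBS by DNA, 4 CpGs in shScr and 0 in shTet3 had BS above oxBS. limma called 0 *Hox* promoters under each alternative. Of the values of single clusters and genes under alternatives, 248 moved by less than the spread between replicates, 40 moved by more and 4 reversed. The 4 reversed values are those of HoxA and *Hoxa9* given above. Some of the 248 and 40 changed sign too. Without shScr replicate 2, the *Hoxc11* promoter went from −3.10 to 10.3 points and the *Hoxd4* promoter from −14.2 to 0.45 points. The causes were not tested. With a coverage minimum of 20 there were 128 hypo-DMPs in oxBS, so this minimum moved the count less than leaving out a library.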

Other observations

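Other annotated genes inside the clusters also differed in level. The pseudogene Gm11539 in HoxB had 11 tested CpGs at 75.2% and 89.6% in shScr and 65.6% and 61.8% in shTet3, with 6 hypo-DMPs. Gm53, a protein-coding gene of the same cluster, had 37 CpGs at 44.9% and 42.9% in shScr and 35.5% and 29.9% in shTet3, with 6 hypo-DMPs. *Hoxb3os*, a transcript antisense to *Hoxb3*, had 73 CpGs at 20.6% and 10.8% in shScr and 12.6% and 14.1% in shTet3, with 0 hypo-DMPs. In HoxD, the lincRNA 1700109F18Rik had 49 CpGs between 0.210% and 0.361% in the 4 libraries. These genes were chosen after their values were seen.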
